A study of Homo sapiens with 12 samples.

Results

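The 7 genes of the human cyclin-dependent kinase (CDK) inhibitors, together with MDM2 and TP53I3 from the p53 axis, were followed in PC9 cells. They were found as the 9 rows of the deposited gene table, out of 62754, whose Ensembl identifiers carry the symbols CDKN1A, CDKN1B, CDKN1C, CDKN2A, CDKN2B, CDKN2C, CDKN2D, MDM2 and TP53I3. PC9 is a lung adenocarcinoma line driven by a mutant EGFR, and erlotinib inhibits the EGFR kinase. RNA was sequenced from 12 cultures, 3 in each of 4 groups, all in RPMI medium with 10% serum and all labelled as 1 batch. The first group was untreated TDP1 wild-type PC9 cells (untreated WT). The second was the same cells, still wild type, kept for 7 days in 1 µM erlotinib and labelled drug-tolerant cells (DTC). The third was wild type as well, kept for 28 days in 1 µM erlotinib and labelled drug-tolerant expanded cells (DTEC). The fourth was a TDP1 knockout, the line KO2, grown without drug (KO), which is 1 line only. Per the labels, wild-type cells came from a subclone of PC9, and the 3 cultures of a group were split from a common flask before they were grown apart. The p-values below therefore measure the spread between cultures of 1 line.

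CDK inhibitors are small proteins that hold back the kinases of the cell division cycle. The CIP/KIP family (CDKN1A or p21, CDKN1B or p27, CDKN1C or p57) binds complexes of several CDKs with their cyclins. The INK4 family (CDKN2A or p16, CDKN2B or p15, CDKN2C or p18, CDKN2D or p19) binds CDK4 and CDK6 and keeps cyclin D from activating them, so that RB stays bound to E2F factors. CDKN2A also encodes ARF, which restrains MDM2, and a gene total cannot separate its transcripts. The transcription factor p53 induces CDKN1A, MDM2 and TP53I3 in many cells, and the MDM2 protein marks p53 for degradation, which closes a feedback loop. TP53I3 encodes a quinone oxidoreductase.

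Library totals ran from 25572664 to 38373675 rounded estimated counts, so 3 counts corresponded to 0.0824 to 0.115 CPM (counts scaled to a common library total by the TMM method). TDP1 itself was lower in the KO libraries (10.8 ± 0.647 CPM, SD, n = 3) than in untreated WT (26.3 ± 1.60), in the direction of the labels, but was also lower in DTC (14.0 ± 1.55). The 6 epithelial markers were present in every library, with a summed level of 10794 to 11395 CPM in untreated WT, 6293 to 7277 for DTC, 9276 to 12151 for DTEC and 11479 to 12314 for KO. The 4 lung markers summed to 1.21 to 2.33 CPM in untreated WT, 1.39 to 2.55 for DTC, 12.3 to 17.5 for DTEC and 5.51 to 7.54 for KO. They did not move together: SFTPB averaged 1.51 CPM in untreated WT, 0.0699 for DTC, 14.1 for DTEC and 6.38 for KO, and NAPSA 0.127, 1.62, 0.541 and 0.244. NKX2-1 had 9, 15 and 12 counts in DTC and at most 2 in any other library, and SFTPC was at or near 0 throughout. The 4 fibroblast markers summed to 7.79 to 8.83 CPM in untreated WT, 54.8 to 57.4 for DTC, 10.9 to 14.1 for DTEC and 13.2 to 14.8 for KO. Nearly all of that was COL1A1. COL1A2 and DCN were at or near 0, and LUM had 6, 18 and 19 counts in the DTC libraries and 0 in all others. The 4 leukocyte markers never summed to more than 1.11 CPM. The 3 endothelial markers, mostly PECAM1 and CDH5, summed to 58.5 to 61.4 CPM in untreated WT, 41.9 to 49.5 for DTC, 122 to 142 for DTEC and 75.7 to 77.2 for KO. The part of these shifts in the results below was not tested. In such bulk samples, fewer cells of a type and less RNA per cell cannot be told apart. DTC replicate 1 stood farther from its own group than any other library, with a mean root-mean-square log2 distance of 0.656 against 0.488 to 0.571.

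Promoter regions of 3 genes are shown because these genes moved in different ways: CDKN1A rose at 7 days and then fell below untreated WT, CDKN2B stayed high, and MDM2 fell at both times. The bases are from RefSeq (GRCh38.p14), read 5′ to 3′ on the strand of the gene, from 250 bases before an annotated start up to the first base in an exon of the gene. Capitals mark motif matches.
CDKN1A: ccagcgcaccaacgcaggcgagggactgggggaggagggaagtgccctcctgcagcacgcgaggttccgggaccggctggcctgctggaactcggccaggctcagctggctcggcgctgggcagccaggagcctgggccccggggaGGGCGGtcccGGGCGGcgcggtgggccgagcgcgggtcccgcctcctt
CDKN2B: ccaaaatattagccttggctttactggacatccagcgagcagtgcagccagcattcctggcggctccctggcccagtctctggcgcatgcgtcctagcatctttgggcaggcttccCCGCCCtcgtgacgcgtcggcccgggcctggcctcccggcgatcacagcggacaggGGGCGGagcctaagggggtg
MDM2: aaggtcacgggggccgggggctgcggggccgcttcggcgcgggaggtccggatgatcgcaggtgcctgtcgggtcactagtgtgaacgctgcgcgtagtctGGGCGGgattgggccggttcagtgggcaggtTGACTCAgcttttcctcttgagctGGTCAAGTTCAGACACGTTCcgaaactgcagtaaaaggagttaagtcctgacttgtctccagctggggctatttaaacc
The CDKN1A stretch is chr6:36678464-36678657 on the plus strand, with a GC content of 76.8%. Its capitals are 2 matches of the GC box GGGCGG, which has 4 matches in the uncut window of 250 bases. The CDKN2B stretch is chr9:22009364-22009555 on the minus strand, with a GC content of 66.1%, and it also holds 2 GC boxes, the first as the complement CCGCCC. The MDM2 stretch is chr12:68808767-68809001 on the plus strand and belongs to the internal promoter in the first intron. It holds a GC box, the AP-1 motif TGANTCA as TGACTCA, and a pair of adjoining p53 consensus motifs with at most 2 mismatches in all, which begins 94 bases before the start. Over 35116 RefSeq promoter windows of 250 bases, searched on both strands, 42.6% held a GC box, 6.57% the AP-1 motif and 0.242% such a p53 pair. The p53 pair was found in none of the windows of the other matched members. Of the 4 MDM2 windows, those before the upstream starts held no such pair either. The well-studied p53 sites of CDKN1A lie farther upstream than its window. The TATA motif TATAAA, the forkhead motif GTAAACA, the cell cycle homology motif TTTGAA and the SMAD motif GTCTAGAC were searched as well and matched no window of these members. CACGTG matched 2 of the 3 windows of CDKN2C, against 6.34% of all windows, but 1 of these 2 windows lies wholly within annotated exons of that gene. The window of TP53I3 lies wholly within an annotated exon of that gene and is not printed.

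Of the CIP/KIP genes, CDKN1A and CDKN1B were measured well above the counting limit. CDKN1A (ENSG00000124762, GRCh38 chr6:36676460-36687339, plus strand) gave 8.78, 10.2 and 9.83 CPM in the untreated WT replicates. It gave 57.3, 56.7 and 61.0 CPM in DTC, 6.46, 5.42 and 5.19 in DTEC, and 9.58, 8.35 and 8.90 in KO. Every DTC library was above every other library, every DTEC library was below every untreated WT library, and KO overlapped untreated WT. Against untreated WT, CDKN1A was 6.08-fold higher for DTC (log2 fold change 2.61, SE 0.113, adjusted p = 2.71e-10, edgeR quasi-likelihood test) and 10.2-fold lower for DTEC than for DTC (-3.36, SE 0.118, adjusted p = 9.53e-11). At 28 days 59.4% of the untreated WT level was left (log2 fold change -0.75, SE 0.115, adjusted p = 8.61e-05). The antisense gene DINOL overlaps CDKN1A, and whether strand was used in the counting is not given in the sources used here, so reads from both cannot be told apart.

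CDKN1B (ENSG00000111276, chr12:12715058-12722371, plus strand), which restrains CDK2 in resting cells, varied far less. Its libraries held 30.1, 28.2 and 32.2 CPM in untreated WT, 31.7, 38.5 and 35.3 for DTC, 39.4, 37.6 and 39.5 for DTEC, and 35.8, 31.2 and 36.9 for KO. Only the DTEC libraries were free of overlap with untreated WT. CDKN1B rose 1.29-fold in DTEC (log2 fold change 0.36, SE 0.104, adjusted p = 0.00878), while the DTC difference of 0.22 (SE 0.104) had an adjusted p of 0.0703. That DTC difference passed the threshold in 9 of 19 alternative settings, with an adjusted p of 0.00594 without DTC replicate 1, 0.0488 without untreated WT replicate 3, 0.0489 and 0.0409 without DTEC replicates 1 and 3, and 0.0373 without KO replicate 2. The other 4 settings were DESeq2 size factors (0.0295), the DESeq2 Wald test (0.0152), the upper quartile (log2 fold change 0.51, adjusted p = 0.000678) and total counts alone (0.58, adjusted p = 0.000191).

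CDKN1C (ENSG00000129757, chr11:2883213-2885773, minus strand), an imprinted gene and the least abundant of the 9, was close to the counting limit. Its counts were 1, 3 and 1 in untreated WT, 4, 17 and 11 for DTC, 5, 4 and 12 for DTEC, and 0, 4 and 7 for KO. It passed the filter on low counts only through its higher groups. The summed counts, scaled to the library totals, were in a ratio of 6.41 between DTC and untreated WT (32 against 5 counts, 95% interval for counting error only 2.48 to 21.1). For DTEC the ratio was 4.31 (21 against 5 counts, interval 1.58 to 14.6), and for KO it was 2.25 (11 against 5 counts, interval 0.721 to 8.27). Because of the way it entered, its fitted tests are not used as support.

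**Figure D1:**
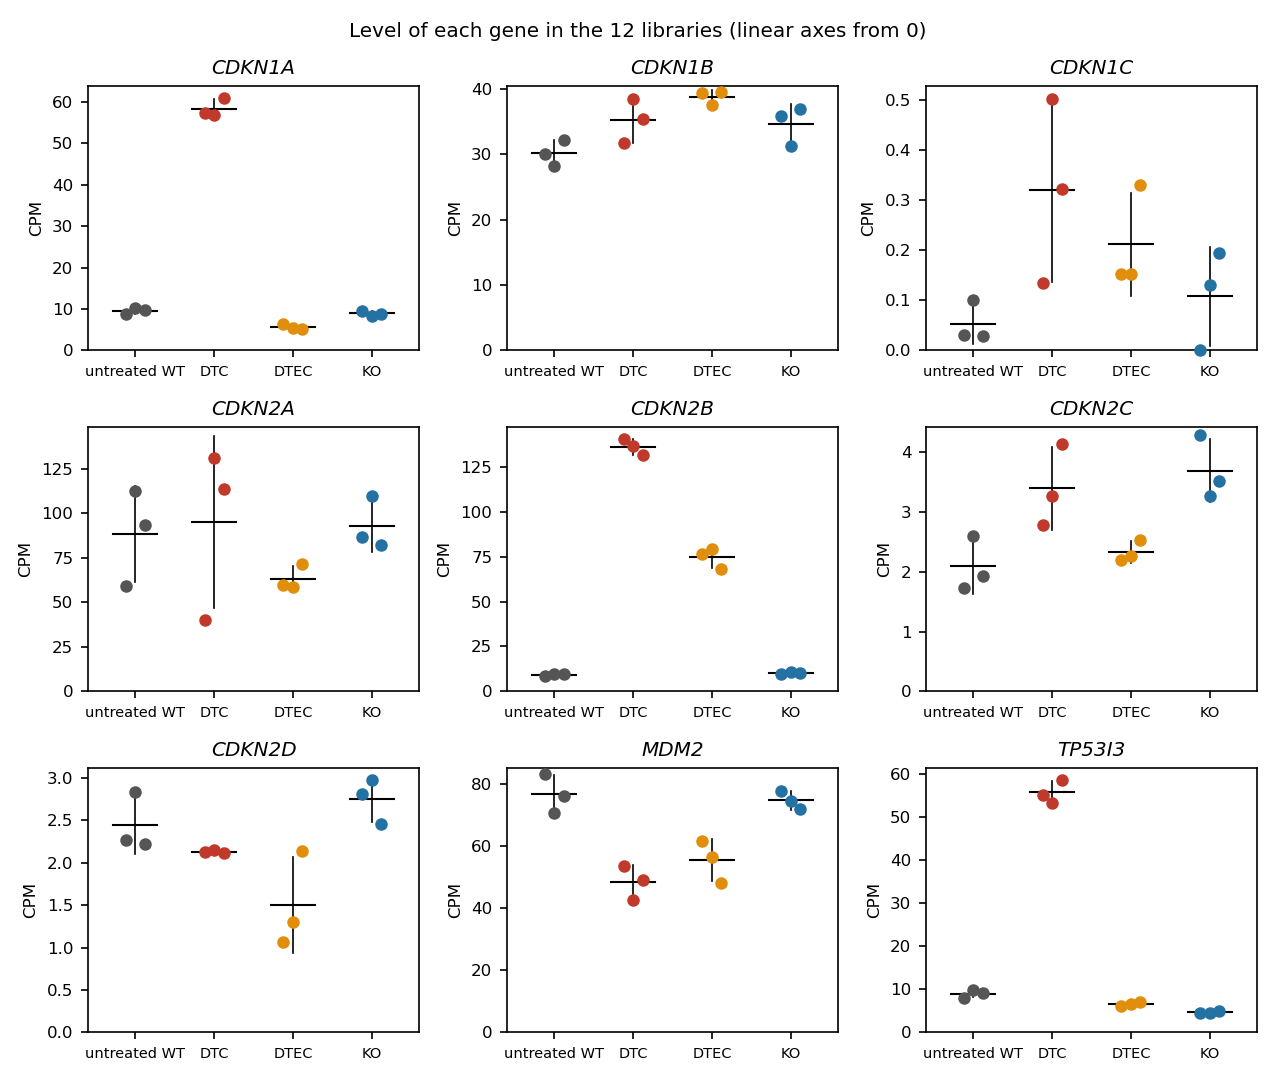
Level of each of the 9 genes in CPM (vertical axis, its own linear scale per gene) in the 3 libraries of each group (points) with the mean and SD (bar). CDKN1A and TP53I3 stand high in DTC alone, with means of 58.3 and 55.8 CPM, whereas CDKN2B stands high in both DTC (136) and DTEC (74.6).

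Among the INK4 genes CDKN2B had the largest response. CDKN2B (ENSG00000147883, chr9:22002903-22009363, minus strand), known as a target of TGF-beta signalling in epithelial cells, gave 8.36, 9.54 and 9.69 CPM in untreated WT. In DTC the values were 140.3, 136 and 131 CPM, in DTEC 76.7, 79.3 and 67.9, and in KO 9.69, 11.01 and 10.1. All 6 erlotinib libraries lay above all 6 untreated ones, and DTC lay above DTEC without overlap. The rise was 14.8-fold in DTC (log2 fold change 3.89, SE 0.109, adjusted p = 1.05e-11) and 8.11-fold in DTEC (3.02, SE 0.106, adjusted p = 2.02e-10). From day 7 to day 28 the level fell to 54.9% (log2 fold change -0.87, SE 0.0961, adjusted p = 4.20e-06).

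CDKN2A (ENSG00000147889, chr9:21967753-21995301, minus strand), its neighbour, varied more within groups than between them. Its levels were 59.1, 113 and 93.2 CPM in untreated WT, 40.3, 131 and 114 for DTC, 60.02, 58.4 and 71.4 for DTEC, and 86.9, 109.6 and 82.3 for KO. The groups overlapped, apart from KO, whose libraries all lay above those of DTEC. The difference from untreated WT was 0.11 on the log2 scale in DTC (SE 0.356, adjusted p = 0.802) and -0.48 in DTEC (SE 0.358, adjusted p = 0.282). DTEC against DTC gave -0.59 (SE 0.358, adjusted p = 0.186), and -0.97 with an adjusted p of 0.00513 without DTC replicate 1, the library with the lowest CDKN2A. With no filter on low counts the same differences of DTEC had adjusted p-values of 0.00155 against untreated WT and 0.000148 against DTC. Without untreated WT replicate 1 the DTC difference turned to -0.09, without DTC replicate 2 to -0.14 and without DTC replicate 3 to -0.01, none of them called. The antisense gene CDKN2B-AS1 overlaps both CDKN2A and CDKN2B, and its own mean level was 1.88 CPM in untreated WT, 1.89 for DTC, 2.09 for DTEC and 1.72 for KO, with no call in any comparison.

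The remaining INK4 genes were low. CDKN2C (ENSG00000123080, chr1:50960745-50974633, plus strand) gave 1.73, 2.60 and 1.93 CPM in untreated WT, 2.77, 3.27 and 4.13 for DTC, 2.19, 2.25 and 2.53 for DTEC, and 4.28, 3.27 and 3.51 for KO. Both DTC and KO lay above untreated WT without overlap, and DTEC overlapped it. CDKN2C rose 1.63-fold in DTC (log2 fold change 0.70, SE 0.215, adjusted p = 0.00963) and stood in DTEC at 68.6% of DTC (-0.54, SE 0.214, adjusted p = 0.0429). The decline after DTC was no longer called without untreated WT replicate 3 (adjusted p = 0.0511), DTC replicate 3 (0.172), DTEC replicate 1 (0.103), DTEC replicate 2 (0.0946) or KO replicate 3 (0.0501).

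CDKN2D (ENSG00000129355, chr19:10566462-10569059, minus strand) gave 2.27, 2.83 and 2.22 CPM in untreated WT, 2.13, 2.15 and 2.11 for DTC, 1.07, 1.299 and 2.14 for DTEC, and 2.81, 2.98 and 2.46 for KO. All DTEC libraries were below all untreated WT libraries, with DTEC replicate 3 the nearest. In DTEC it fell to 61.6% of its untreated level (log2 fold change -0.69, SE 0.248, adjusted p = 0.0310). That call was lost in 9 of 19 alternative settings, among them the removal of untreated WT replicate 1 (adjusted p = 0.0572), 2 (0.132) or 3 (0.0535), or of DTEC replicate 1 (0.154) or 2 (0.122). Against DTC the DTEC difference was -0.49 (SE 0.249, adjusted p = 0.108), with an adjusted p of 0.00665 without DTEC replicate 3.

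Levels can be set against each other between genes only per length. For this, CPM was divided by the union of annotated exons in kilobases (CPM per kb). That union was 4329 bases for CDKN2A, 4058 for CDKN2B and 13284 for MDM2, and it can exceed the length of the transcripts present. The ranks, sums and shares that follow depend on it, and no other length was tried. CDKN2A was the most abundant of the 9 genes in untreated WT, at a mean of 20.4 CPM per kb, followed by CDKN1B at 10.7 and MDM2 at 5.78. CDKN2B stood sixth at 2.27 CPM per kb in untreated WT and first in DTC (33.5) and DTEC (18.4). In DTC it was followed by TP53I3 at 24.1, CDKN2A at 22.0 and CDKN1A at 19.1 CPM per kb. The CDKN2A libraries spanned the levels of both others, so its place among them is not resolved. In DTEC CDKN2A (14.6) and CDKN1B (13.8) came next, within the spread of CDKN2A, and CDKN1A was at 1.87 CPM per kb. CDKN2C, CDKN2D and CDKN1C stayed at or below 1.83 CPM per kb in every group.

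Summed over the 7 inhibitors, the transcript level was 38.8 ± 6.74 CPM per kb in untreated WT (SD, n = 3), 89.7 ± 11.9 in DTC, 50.5 ± 0.755 in DTEC and 42.2 ± 2.37 in KO. The 3 DTC sums, 76.2 to 98.8, lay above all others, and the DTEC sums, 49.8 to 51.3, lay above those of untreated WT, 31.3 to 44.4. CDKN2B made up 5.91% of the untreated WT sum, 37.9% of the DTC sum, 36.5% of the DTEC sum and 5.99% of the KO sum. The share of CDKN1A was 8.20% in untreated WT, 21.6% for DTC and 3.70% for DTEC. CDKN2A held 51.7% of the untreated WT sum, 23.6% of that in DTC and 28.9% of that in DTEC. The CIP/KIP sum was 13.9 CPM per kb in untreated WT, 31.8 for DTC and 15.8 for DTEC, and the INK4 sum was 24.9, 57.9 and 34.7 in the same order.

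**Figure D2:**
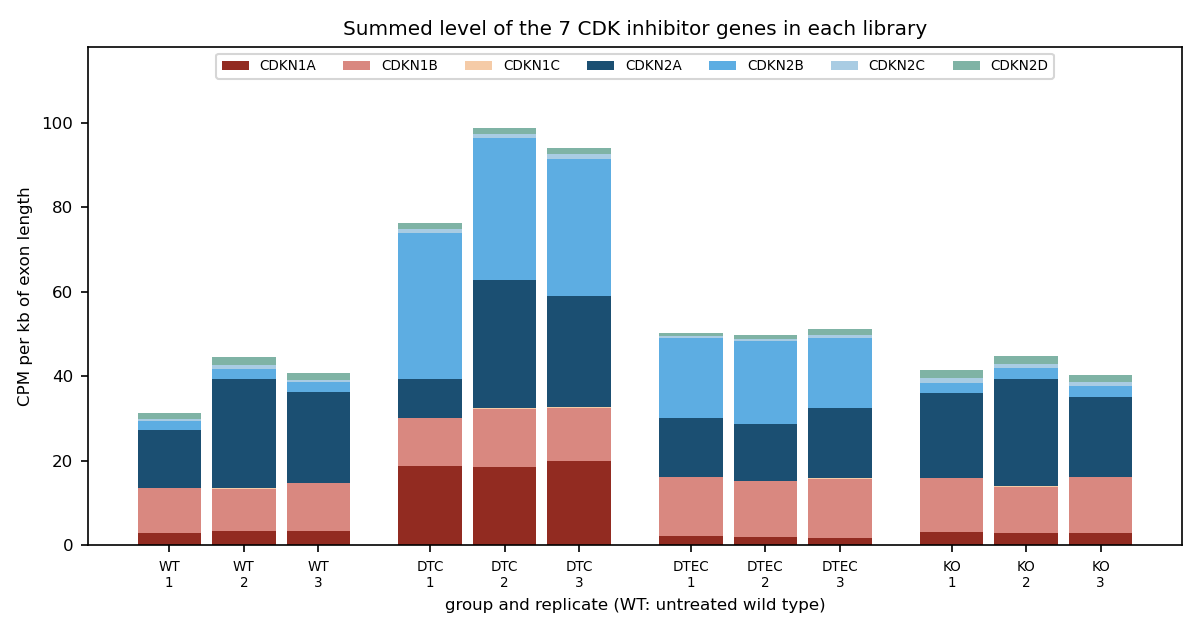
Summed level of the 7 CDK inhibitors in CPM per kb of exon (vertical axis, from 0) in each of the 12 libraries, stacked by gene. CDKN2B is a small part of the bars in untreated WT and KO (5.91% and 5.99% on average) and the largest part in DTC and DTEC (37.9% and 36.5%). These parts depend on the exon length taken for each gene.

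MDM2 and TP53I3, both known p53 targets, moved apart in DTC. MDM2 (ENSG00000135679, chr12:68808176-68850686, plus strand) gave 83.2, 70.8 and 76.3 CPM in untreated WT, 53.5, 42.8 and 49.1 for DTC, 61.8, 56.6 and 48.2 for DTEC, and 77.9, 74.5 and 71.99 for KO. Erlotinib libraries were all below untreated ones, and DTC and DTEC overlapped. MDM2 fell in DTC to 63.2% of its untreated level (log2 fold change -0.66, SE 0.115, adjusted p = 0.000143) and to 72.4% in DTEC (-0.47, SE 0.114, adjusted p = 0.00344). Scaled by total counts alone, both falls were still called but smaller, at -0.31 in DTC and -0.30 in DTEC. None of the 12 deposited MDM2 values was a whole number, whereas all values of the other 8 genes were, so part of its reads was divided among features in the estimation.

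TP53I3 (ENSG00000115129, chr2:24077433-24085861, minus strand) gave 8.09, 9.75 and 9.14 CPM in untreated WT, 55.2, 53.4 and 58.8 for DTC, 6.12, 6.61 and 7.01 for DTEC, and 4.53, 4.596 and 5.06 for KO. The order DTC, untreated WT, DTEC, KO held with no overlap between any pair of groups. It rose 6.20-fold in DTC (log2 fold change 2.63, SE 0.109, adjusted p = 1.74e-10) and was 8.47-fold lower in DTEC than in DTC (-3.08, SE 0.112, adjusted p = 1.34e-10). DTEC stood at 73.1% of the untreated level (-0.45, SE 0.109, adjusted p = 0.00327), and with scaling by total counts alone at -0.28 on the log2 scale, still called. FAM228B overlaps TP53I3 on the opposite strand.

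In DTC against untreated WT, 6 of the 9 genes were called, 5 higher and 1 lower (5, with 4 higher, when CDKN1C is left out), beside 67.3% of all 17115 genes tested (34.0% higher and 33.3% lower). In DTEC against untreated WT 6 were called, 2 higher and 4 lower, beside 52.3% (26.0% higher and 26.3% lower). In DTEC against DTC 4 were called, all lower, beside 55.4% of all genes, 28.8% higher and 26.6% lower. The counts of called members were thus near the background in both comparisons with untreated WT. At 2-fold or more, 4 members (CDKN1A, CDKN2B, TP53I3 and the low CDKN1C, or 3 without it) were higher in DTC, beside 22.3% of all genes, and 1 was higher and none lower in DTEC, beside 13.2% and 6.70%. Between DTC and DTEC 2 members fell by at least 2-fold and none rose by as much, beside 14.3% and 8.10%. Libraries did not overlap for 7 members in DTC and for 7 in DTEC, against untreated WT, beside 68.9% and 62.4% of genes, and 4 members did not overlap between DTEC and DTC, beside 56.7%. With total counts alone as the scale, the median of all genes shifted by 0.35 in DTC and 0.17 in DTEC against untreated WT, and by -0.19 for DTEC against DTC. The share of calls that were higher then went from 50.5% to 68.4%, from 49.7% to 63.7% and from 51.9% to 37.4%. With the upper quartile it was 65.0%, 59.1% and 38.7%. Without DTC replicate 1, the log2 fold change in DTC was 2.65 for CDKN1A, 3.90 for CDKN2B, 2.68 for TP53I3 and -0.70 for MDM2. These comparisons share libraries, so their values are given side by side.

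**Figure D3:**
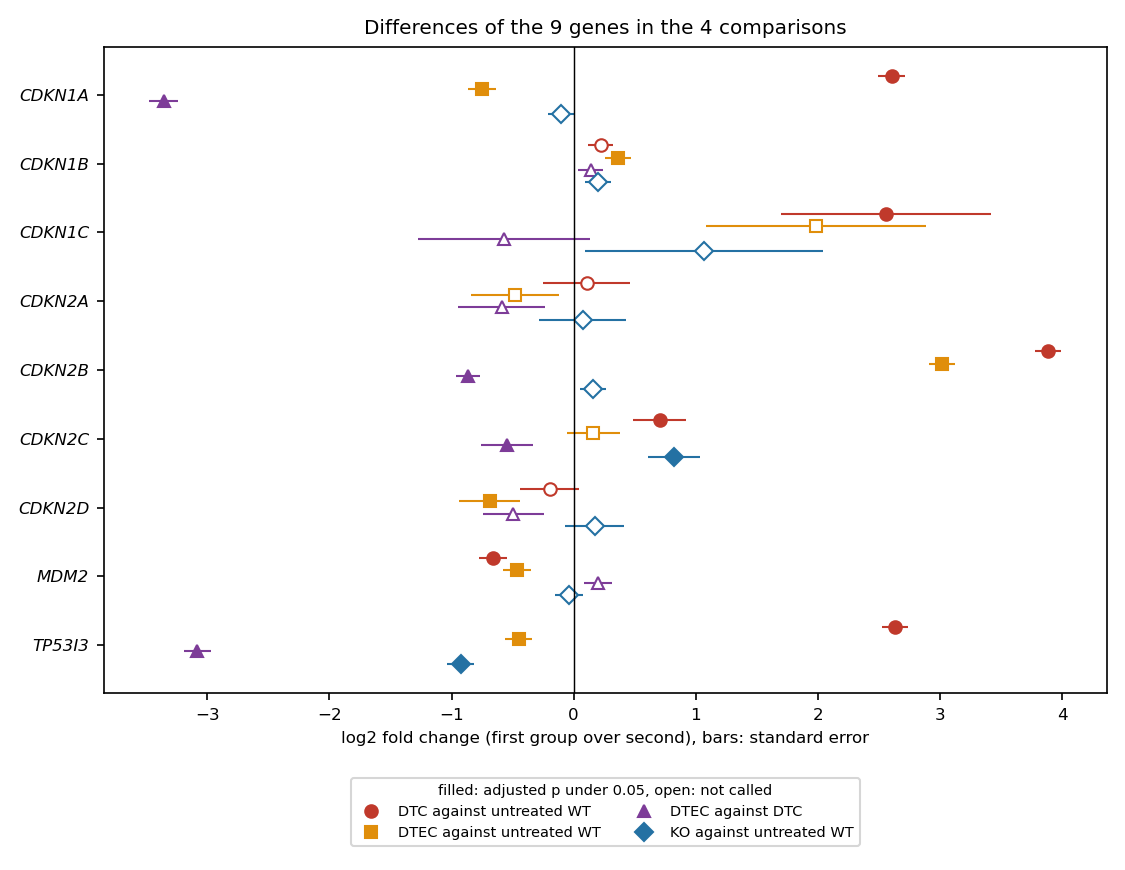
Log2 fold change with its SE (horizontal axis) of the 9 genes (rows) in 4 comparisons, filled where the adjusted p was under 0.05. The DTEC against DTC symbols of CDKN1A and TP53I3 are farthest to the left, at -3.36 and -3.08. The wide bars of CDKN1C rest on counts of 0 to 17 per library, so its positions depend on the prior count and its filled symbol supports nothing.

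In the TDP1 knockout line, 2 of the 9 genes were called against untreated WT, 1 higher and 1 lower, beside 4.31% of all genes (2.76% higher and 1.55% lower). Neither reached 2-fold, which 0.964% of genes did upward and 0.339% downward, and the libraries of both did not overlap, beside 35.7%. TP53I3 stood at 52.6% (log2 fold change -0.92, SE 0.112, adjusted p = 0.000325), and the highest adjusted p over 19 alternative settings was 0.00562. CDKN2C rose 1.77-fold (0.82, SE 0.215, adjusted p = 0.0453), and that call was lost without untreated WT replicate 1 (adjusted p = 0.185) and in 6 other settings. These included the removal of untreated WT replicate 3 (0.157), KO replicate 1 (0.175), KO replicate 2 (0.0855), KO replicate 3 (0.109) and DTEC replicate 2 (0.0644). The other 7 did not pass, among them CDKN1A (-0.10, SE 0.112, adjusted p = 0.711), CDKN2B (0.16, SE 0.104, adjusted p = 0.484) and MDM2 (-0.04, SE 0.114, adjusted p = 0.911). The count of genes called in KO was 738 and ranged from 321 without untreated WT replicate 1 to 1520 without DTC replicate 1.

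Other genes induced by p53 were taken as a list of 30, of which 28 were tested. In DTC 14 rose and 8 fell, beside 34.0% and 33.3% of all genes tested. The median log2 fold change was 0.24, beside 0.06 for all genes. TP53INP1, a promoter of cell death and autophagy, went from 0.133 ± 0.0125 CPM (4 to 5 counts a library) to 12.8 ± 1.03 (409 to 420 counts). It is counted among the 14 but passed the filter on low counts only through the erlotinib libraries. Its fitted test (log2 fold change 6.54, SE 0.334) is therefore not used as support. GADD45A, a growth arrest gene, rose from 40.5 ± 3.68 to 190.2 ± 22.7 CPM (2.23), and the tetraspanin gene CD82 from 6.53 to 32.5 CPM (2.31). AEN, a nuclease of apoptotic cells, fell from 68.9 to 14.3 CPM (-2.27), and BAX, a pore-forming effector of apoptosis, fell too (-0.97). The list thus held genes called in both directions, and with total counts alone as the scale 18 rose and 4 fell.

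In DTEC against untreated WT, 7 of the 28 rose and 10 fell, beside 26.0% and 26.3% of all genes. The median was 0.01 beside 0.02 for all genes, and with total counts alone 10 rose and 7 fell. TP53INP1, whose fitted test is not used as support, had 192 to 256 counts a library against 4 to 5 in untreated WT (7.11 CPM against 0.133). BBC3, a BH3-only trigger of apoptosis, was higher at 8.24 CPM against 1.62 (log2 fold change 2.34), and AEN was still lower (18.5 CPM, -1.90). GADD45A was at 26.9 CPM, below untreated WT (-0.59). Between DTC and DTEC 14 fell and 7 rose, beside 26.6% and 28.8% of all genes, with a median of -0.37 beside -0.01. GADD45A fell by 2.82 on the log2 scale and RPS27L by 1.91, while SESN2, a stress-induced regulator of mTORC1, rose by 1.68. RPS27L has near-identical relatives, and 2 of its 12 values were whole numbers. With total counts alone 14 fell and 4 rose. In KO edgeR called CD82 higher (0.62, adjusted p = 0.0205) and AEN lower (-0.36, adjusted p = 0.0447), beside 4.31% of all genes called. Of the 28, 7 had an unadjusted p under 0.05, and DESeq2 called 4. The AEN call was lost in 13 of 19 alternative settings, with an adjusted p of 0.101 with total counts alone and up to 0.226 without untreated WT replicate 3. The CD82 call was lost in 5, without untreated WT replicates 1 (0.0600), 2 (0.0539) and 3 (0.110) and KO replicates 1 (0.0758) and 2 (0.108).

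**Figure D4:**
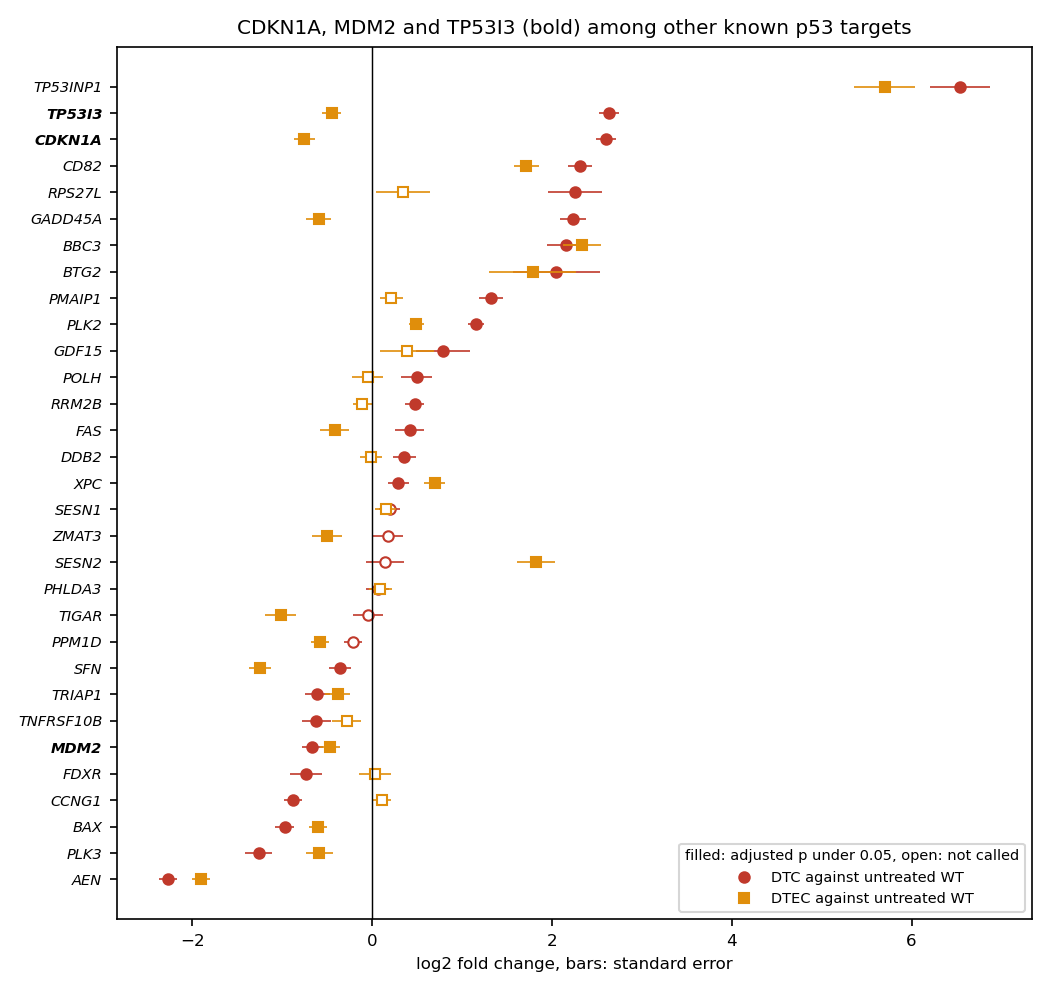
Log2 fold change (horizontal axis) of MDM2, TP53I3, CDKN1A and the tested genes of the p53 target list, filled where called. TP53INP1 lies farthest to the right in DTC at 6.54 and AEN farthest to the left at -2.27, so points fall on both sides of 0. The TP53INP1 positions rest on 4 to 5 counts per untreated WT library, so its filled symbols support nothing.

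The regulators of p53 gave 1 higher and 7 lower calls in DTC among 13 tested, beside 34.0% and 33.3% of all genes, with a median of -0.60. With total counts alone the calls were 5 higher and 5 lower, so the balance of this list depended on the scaling. TP63, a transcription factor of squamous epithelia, rose (2.94), and USP7, a deubiquitinase of MDM2 and p53, and the kinase gene HIPK2 fell (-1.66 and -1.49). In DTEC 2 rose and 3 fell, beside 26.0% and 26.3% of all genes. ATM, the kinase activated by DNA breaks, was at 0.97, TP53RK at -0.85 and CHEK1 at -0.76. CHEK1 was at 56.3, 21.4 and 33.3 CPM in untreated WT, DTC and DTEC. HIPK2 (1.70) and USP7 (1.01) were higher in DTEC than in DTC, and TP63 was lower (-2.20). All 13 were called between DTEC and DTC, 10 higher and 3 lower, beside the 55.4% of all genes given above. With total counts alone the calls were 7 higher and 3 lower in that comparison, and 4 higher and 3 lower in DTEC against untreated WT. MDM4, the MDM2 partner, was called only in DTEC against DTC among the 4 comparisons (0.33, edgeR adjusted p = 0.0402), and its libraries overlapped there. In KO edgeR called none of the 13, with 1 at an unadjusted p under 0.05, and DESeq2 called none.

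Genes that raise or lower the inhibitors numbered 20, all tested. In DTC 3 rose and 11 fell (6 and 8 with total counts alone), beside 34.0% and 33.3% of all genes, with a median of -0.42. In DTEC 5 rose and 8 fell, beside 26.0% and 26.3%, with a median of -0.30. MYC, a repressor of CDKN1A and CDKN2B, was at 305 CPM in untreated WT, 77.5 for DTC (log2 fold change -1.98) and 223 for DTEC (1.53 above DTC). TGFB2, a ligand of the TGF-beta receptors, rose from 69.1 to 211 CPM in DTC (1.61) and stood at 74.6 in DTEC (-1.50 against DTC). FOXO4, a transcription factor held in the cytoplasm by AKT, rose from 6.45 to 15.8 CPM in DTC and 26.3 in DTEC. CBX7, a Polycomb protein known to repress CDKN2A, rose in DTEC (1.19), as did FBXO4, a ubiquitin ligase subunit (1.06), and FOXO3 was higher in DTEC than in DTC (1.08). In KO edgeR called none of the 20, with 4 at an unadjusted p under 0.05, and DESeq2 called 1.

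The kinases and cyclins that the inhibitors bind gave 1 higher and 7 lower calls among 11 tested in DTC, beside 34.0% and 33.3% of all genes. The median was -1.33, and with total counts alone the calls were 4 higher and 6 lower. In DTEC there were 9 lower calls, beside 26.3% of all genes (median -0.75). CCNA2 fell in both, from 324 CPM to 81.1 and 117, as did CDC25A, the phosphatase that activates CDK2 (-1.57 and -1.85). CCNE1 was at 45.5, 18.1 and 19.1 CPM in untreated WT, DTC and DTEC (-1.25 for DTEC). CCNB1 was at 493, 126 and 211 CPM in the same order (-1.97 for DTC). From DTC to DTEC, CDK4 (0.85) and CCND1 (0.81) rose and CCNE2 fell (-1.55). Of 19 genes of the RB, E2F and DREAM group, 13 fell and 2 rose in DTC, beside 33.3% and 34.0% of all genes (median -0.92). In DTEC 13 fell and 3 rose, beside 26.3% and 26.0% (median -0.68). FOXM1 fell in both (-1.95 and -1.11). RBL2, the pocket protein of resting cells, was at 26.3, 63.6 and 93.2 CPM in untreated WT, DTC and DTEC (1.83 for DTEC). E2F4 (-1.67) and E2F5 (-1.56) fell in DTC and were higher in DTEC than in DTC (0.99 and 1.23). MYBL2 was at 434, 149 and 137 CPM in untreated WT, DTC and DTEC (-1.67 for DTEC). All 20 proliferation genes fell in both DTC (median -1.81) and DTEC (median -0.93), beside 33.3% and 26.3% of all genes. With total counts alone 19 and 17 of them fell. PLK1 was at 325, 31.7 and 115 CPM in untreated WT, DTC and DTEC. CDC20 (-2.87) and AURKA (-2.40) were among the largest falls in DTC, and RRM2 (-1.66) and TYMS (-1.47) in DTEC. Between DTC and DTEC 17 of the 20 rose and 2 fell, beside 28.8% and 26.6% of all genes, with TOP2A at 1.67 and CDC20 at 1.42. Of these 3 groups edgeR called no gene in KO. At an unadjusted p under 0.05 there were 1 of the kinases and cyclins, 4 of the RB group and 1 of the proliferation genes, and DESeq2 called 1, 1 and 0.

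Around CDKN2A and CDKN2B on 9p21, 7 of 9 neighbouring genes were tested, and 3 rose and 2 fell in DTC, beside 34.0% and 33.3% of all genes. HACD4, among those that rose, passed the filter on low counts only through the erlotinib libraries. HACD4 had 0 to 2 counts in the untreated WT libraries and 48 to 58 in DTC, at least 18.3-fold higher against a floor of 3 counts per library, and 17 to 31 in DTEC, at least 8.53-fold higher. MTAP, a methionine salvage enzyme, fell from 65.2 to 34.4 CPM in DTC (-0.92) and was at 65.2 CPM in DTEC, which was not called. KLHL9 rose in DTC and DTEC (0.43 and 0.34), FOCAD fell (-0.61 and -0.65), and DMRTA1 rose in DTC (1.03). ELAVL2, at 0.273 CPM in untreated WT, was called for DTEC (0.632 CPM), and IFNE was too low to be tested. In KO DMRTA1 was the 1 neighbour called (-1.31, edgeR adjusted p = 0.0200), beside 4.31% of all genes. That call was lost in 5 of 19 settings, those without untreated WT replicates 1 (0.0736) and 3 (0.0617) and KO replicates 1 (0.0513), 2 (0.0759) and 3 (0.108). CDKN2A-DT was at 0 counts in all 12 libraries.

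The genes most like CDKN1A, CDKN2B and TP53I3 over the 12 libraries were found among 9799 genes by the root-mean-square difference of log2 CPM after subtraction of each gene's untreated WT mean. CDKN1A was closest to DKK1, a secreted WNT antagonist (0.194), FSTL3 (0.265) and GADD45A (0.271). DKK1 averaged 35.8 CPM in untreated WT, 185 for DTC, 24.4 for DTEC and 36.5 for KO. CDKN2B was closest to UPK2, a uroplakin gene (0.216), KLHL24 (0.295) and CALCOCO1 (0.319). UPK2 averaged 4.16 CPM in untreated WT, 60.1 for DTC, 40.7 for DTEC and 4.23 for KO. TP53I3 was closest to DAPP1 (0.229), which averaged 18.2, 100.5, 14.9 and 12.1 CPM in the same order and so was lower in KO as well. GADD45A (0.382) and CDKN1A (0.453) followed. Likeness over these libraries is a description and carries no test.

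**Figure D5:**
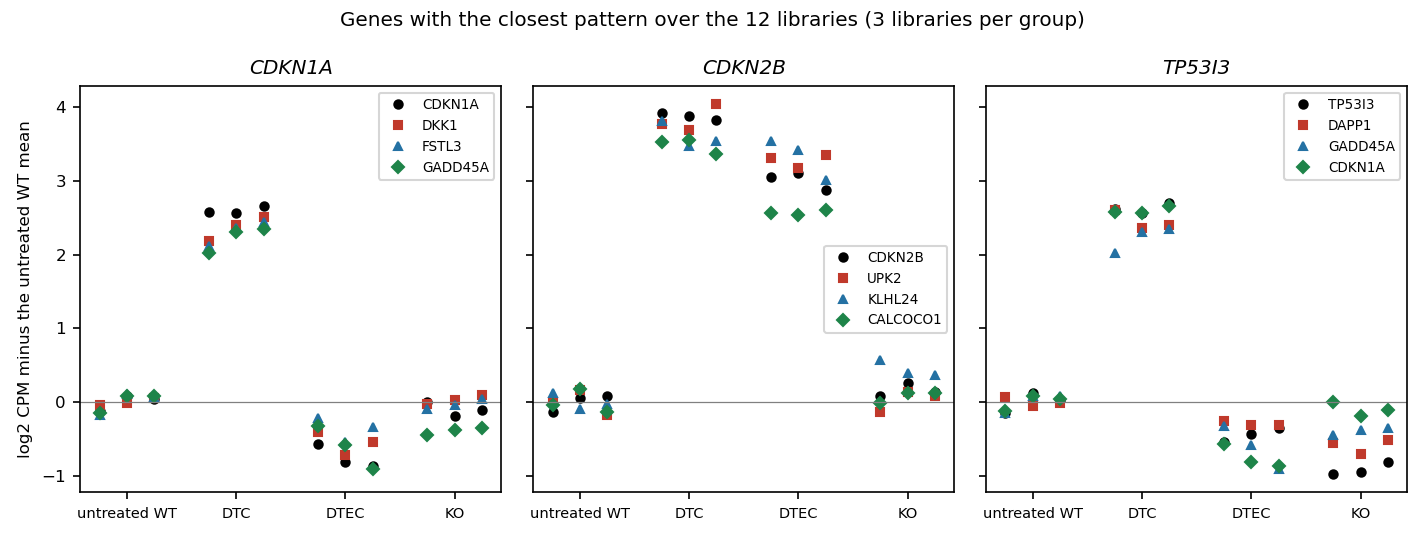
Log2 CPM minus the untreated WT mean (vertical axis) of CDKN1A, CDKN2B and TP53I3 (black) and their 3 closest genes (colours) in the 3 libraries of each group. TP53I3 and DAPP1 lie below 0 in KO and CDKN1A lies near it, while the genes beside CDKN2B stay high in DTEC.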

How the data were processed

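RNA was sequenced from 12 PC9 libraries with the TruSeq Stranded mRNA kit, per the labels' protocols. The authors deposited expected counts per gene, which are estimated counts not scaled to depth. RSEM 1.3.1, Bowtie2 2.5.2, DESeq2 1.40.2 and GRCh38 are named in the submitters' processing notes. The annotation release and strand setting are not given in the sources used here. Of the values of 15935 genes with a mean of at least 10, 71.4% were whole. Like those of MDM2, 0 of the 12 values were whole for FOXO3, MTAP and KCNQ1OT1. Whole values numbered 1 of 12 for CD82 and CDKN2B-AS1, 2 for E2F5 and CARS1, and 3 for ATM, TGFB2 and MDM4. Part of the reads of these genes was also divided among features. Symbols were found for 62700 of 62754 identifiers, and coordinates and exon lengths came from GENCODE 29.

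Values were rounded to whole counts. In R 4.3.3, edgeR 4.0.16 was run with TMM scaling, filterByExpr by group, all 12 libraries in 1 fit and quasi-likelihood tests. This left 17115 genes holding at least 99.891% of the counts. P-values were adjusted over these genes by the Benjamini-Hochberg method, and genes were called at an adjusted p under 0.05. SE belongs to the log2 fold change and ± is the SD of 3 libraries. Totals of 25572664 to 38373675 set the depth, and intervals and floors cover counting error only, since reads carried no molecular identifiers. The members and the 9 lists (150 genes) were chosen with earlier results of these data known. The genes that could be named were, from each list, at most 3 called genes with the largest change per comparison and a mean of at least 1 CPM, any neighbour on 9p21 and 11p15, MDM4 and TDP1, and BAX was chosen after its values were seen. The 3 closest genes by likeness were named among genes with a mean of at least 10 CPM. Counts of the lists of p53 regulators and senescence-associated genes leave out 1 gene each, which is not reported here. The fit was tested on simulated data. Alternatives were DESeq2 1.42.0, other scalings, no filter, a replicate block, fits of the compared libraries alone and the removal of each library, 19 settings in all. The 18 same-numbered pairs of libraries deviated together with r from -0.0300 to 0.179, and 4 had r over 0.1. The numbers were not taken as pairs in the main fit. With the replicate block the genes called went from 11520 to 11775 in DTC and from 738 to 887 in KO, against untreated WT.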

Additional observations from a re-analysis of the deposited data

Results flagged for a closer look

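Tested directly, DTEC (28 days) differed from DTC (7 days) for 4 of the 9 genes, beside 55.4% of all genes tested. The log2 difference was -3.36 for CDKN1A, which was above untreated WT at 7 days and below it at 28 days. It was -3.08 for TP53I3, with the same change of side. CDKN2B differed by -0.87 and was above untreated WT at both times. CDKN2C differed by -0.54, the smallest of the 4, and its call depended on single libraries as given above.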

How the results depend on the processing

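The calls of CDKN1A, CDKN2B, MDM2 and TP53I3 in DTC and DTEC against untreated WT kept their direction and side of the threshold in all 19 alternative settings, as did those of CDKN1A, CDKN2B and TP53I3 in DTEC against DTC and of TP53I3 in KO. Depth limits CDKN1C, whose counts reached 17 at most. In KO against untreated WT, 2 members were called, 1 with the replicate block, and 1 to 2 when single libraries were left out. The 738 genes called there became 1145 with the DESeq2 Wald test, 1147 with no filter, 2656 with the compared libraries only, and 321 to 1520 when single libraries were left out. Counts over all 150 listed genes include those left out of the list counts above. Of these 150, 7 were called there, 14 with DESeq2, 11 with the replicate block, 33 with the compared libraries only, and 2 to 21 when single libraries were left out. The cause was not tested. The replicate block ended the calls of CDKN2C in KO (adjusted p = 0.0513) and in DTEC against DTC (0.0548), and changed no other call among the 9 genes. Uncalled differences changed sign as follows. CDKN2D in DTC gave 0.0937 with the upper quartile and 0.16 with total counts alone. CDKN1B in DTEC against DTC gave -0.0342 and -0.0456 with the same scalings. CDKN2D in that comparison was called with both (adjusted p = 0.0366 and 0.0318). MDM2 in KO gave 0.032 with total counts alone and -0.0696 to 0.0405 when single libraries were left out. In the same fits CDKN2A ran from -0.14 to 0.51 in DTC and from -0.13 to 0.31 in KO.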

Other observations

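Senescence-associated genes, of which 13 of 14 were tested, gave 9 higher and 3 lower calls in DTC (median log2 fold change 1.71, beside 0.06 for all genes) and 5 higher and 5 lower in DTEC (median 0.56, beside 0.02). The background in DTC was 34.0% of genes higher and 33.3% lower, and in DTEC 26.0% and 26.3%. IGFBP5, a secreted binding protein of insulin-like growth factors, rose from 3.61 CPM in untreated WT to 301 in DTC and 228 in DTEC, and stood at 15.1 in KO (log2 fold change 2.07). IL6 rose from 0.312 to 14.8 CPM in DTC and was at 0.473 in DTEC, and CXCL8 rose from 0.637 to 17.8 and was at 1.65. IGFBP3 exceeded its untreated WT level in DTEC (57.8 to 272 CPM, 2.23), but its DTC mean was higher still (1460 CPM). MMP1, a collagenase, fell below its untreated WT level in DTEC (2.19 to 0.831 CPM, -1.38), whereas its DTC mean lay above that level (3.31 CPM). In KO 1 of the 13 was higher and 2 were lower by edgeR, beside 2.76% and 1.55% of all genes, and DESeq2 called 5. IL1B, an inflammatory cytokine, was lower in KO (78 to 94 counts in untreated WT and 35 to 55 in KO, -0.81, edgeR adjusted p = 0.0306), a call lost in 7 of 19 alternative settings, with an adjusted p of up to 0.153 without KO replicate 1. The other was the related IL1A, named after its values were seen (13 to 33 counts in untreated WT and 1 to 7 in KO, -2.20, edgeR adjusted p = 0.0361). That call was lost in 5 of the 19, those without untreated WT replicates 1 (0.164) and 3 (0.0857), DTC replicate 3 (0.0528) and KO replicates 2 (0.138) and 3 (0.117). Between DTC and DTEC 9 of the 13 fell and 3 rose, beside 26.6% and 28.8% of all genes.

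Around CDKN1C on 11p15, 9 of 10 neighbouring genes were tested, and 4 rose and 3 fell in DTC, beside 34.0% and 33.3% of all genes. In DTEC 2 rose and 3 fell, beside 26.0% and 26.3%. With total counts alone 4 rose and none fell in DTC. KCNQ1OT1, the long noncoding RNA of the imprinted domain that holds CDKN1C, rose from 7.51 to 13.9 CPM in DTC (0.89) and was not called in DTEC. SLC22A18 (1.43) and CARS1 (0.42) rose in DTC, and NAP1L4 (-0.49), CD81 (-0.38) and TSSC4 (-0.75) fell. IGF2, counted among the 4 that rose, had 1 to 9 counts in the untreated WT libraries and 18 to 29 in DTC. It had 0 to 4 counts in DTEC and 4 to 8 in KO, and passed the filter on low counts only through DTC. Its fitted test is not used as support. In DTEC SLC22A18 (0.88) and CARS1 (1.23) rose, and PHLDA2 (-2.17), NAP1L4 (-0.54) and TSSC4 (-1.12) fell. H19 was not called in either, and KCNQ1 was not tested.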
